A study of Mus musculus with 21 samples.

Results

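Transcript levels of 39 genes of fatty acid oxidation and the tricarboxylic acid (TCA) cycle were examined across mouse aortic valve libraries. The genes were taken by name as a pathway list, chosen with earlier results of these data known. All 39 were found once among the 20872 genes of the deposited table. They fall into 4 genes of fatty acid uptake and binding, 6 of activation and the carnitine shuttle, 10 of beta-oxidation, 3 of electron transfer, 14 of the TCA cycle, and the kinase Pdk4 with the uncoupling protein gene Ucp3. A minimum mean of 1 FPKM (fragments scaled by the length of the gene and the size of the library) left 38 of them for testing. Ucp3, at 0 to 2.38 FPKM, was left out.

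The 21 libraries were made from total RNA of whole aortic valves, and every mouse was Terc-/- of generation 2, that is without the RNA template of telomerase and with shortened telomeres. WT stands for N1+/+ mice with healthy valves under control solvent (n = 4). N1+/- mice (N1het, with 1 intact copy of Notch1, which encodes a receptor that regulates transcription after cleavage) gave 4 groups. With solvent these were N1het healthy (n = 6) and N1het stenosis (valves with a narrowed opening, n = 3), and with the drug they were N1het stenosis XCT790 (n = 3) and N1het healthy XCT790 (n = 5). XCT790 is an inverse agonist of the nuclear receptor ERRα, the product of Esrra. Solvent or XCT790, the drug at 5 mg per kg, was injected into the peritoneum each day over 4 weeks, beginning at an age of 4 weeks. Whether the libraries of a group are separate animals is not stated, so p-values measure the spread between these samples, which may be partly technical. In 6 libraries (N1het healthy XCT790 1 to 3 and N1het stenosis 1 to 3) the agent label contradicts the title, and groups here follow the titles.

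Fatty acids enter cells through carriers such as CD36, are held in the cytosol by binding proteins, are coupled to coenzyme A and cross the inner mitochondrial membrane as carnitine esters. Beta-oxidation then shortens them to acetyl-CoA, which the TCA cycle oxidises, and electrons pass on through flavoproteins. Heart muscle relies on this route for most of its energy, and ERRα with its coactivator PGC-1α drives many of the genes. The comparisons bear on the effect of Notch1 dosage, of stenosis and of ERRα inhibition on these genes.

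Promoter sequence is shown for 3 members whose levels followed the heart muscle markers most closely among those with a sequence, as described further on. RefSeq promoter windows of GRCm38.p6, from 250 bases before to 50 bases after the gene start, were matched by symbol for 33 of the 39 members. The 250 bases before the start are printed on the strand of the gene, for Fabp3 (cytosolic fatty acid binding protein of muscle) from chr4:130308488-130308737 (plus strand), for Acadm (medium-chain acyl-CoA dehydrogenase) from chr3:153944644-153944893 (minus strand) and for Mdh1 (cytosolic malate dehydrogenase) from chr11:21571935-21572184 (minus strand). Capitals mark a match to AAGGTCA, the core of the ERR response element, which in Acadm lies on the strand opposite to the gene and so reads TGACCTT.
Fabp3 promoter: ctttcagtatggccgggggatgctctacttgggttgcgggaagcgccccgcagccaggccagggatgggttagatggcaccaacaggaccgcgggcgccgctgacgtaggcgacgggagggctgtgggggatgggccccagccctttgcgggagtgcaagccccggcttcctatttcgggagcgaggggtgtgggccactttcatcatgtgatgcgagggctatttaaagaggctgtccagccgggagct
Acadm promoter: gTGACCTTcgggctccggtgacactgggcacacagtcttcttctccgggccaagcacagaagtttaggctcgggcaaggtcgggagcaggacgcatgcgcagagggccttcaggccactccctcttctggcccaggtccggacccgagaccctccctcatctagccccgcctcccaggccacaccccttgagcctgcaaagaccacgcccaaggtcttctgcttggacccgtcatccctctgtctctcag
Mdh1 promoter: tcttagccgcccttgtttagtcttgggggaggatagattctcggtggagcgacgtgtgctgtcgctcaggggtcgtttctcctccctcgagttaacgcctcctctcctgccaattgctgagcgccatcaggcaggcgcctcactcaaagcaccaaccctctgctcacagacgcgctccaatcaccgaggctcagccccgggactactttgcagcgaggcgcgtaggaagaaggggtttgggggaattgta
Ogdh, a subunit of the 2-oxoglutarate dehydrogenase complex, held the other match among the members, across its start, shown in 30 bases from chr11:6292154-6292183 (plus strand).
Ogdh start: ggacacggcgcTGACCTTggtgcctgcggc

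On both strands, AAGGTCA was present in 2 of 33 member windows (6.06%) and in 5.38% of the windows of 27025 genes. Its longer form TNAAGGTCA was in 0 of 33 and in 1.43% of all. The half-site AGGTCA, which lies within both, was in 10 of 33 (30.3%) and in 18.1% of all. The MEF2 element of muscle genes, searched as CTA and TAG with 4 free bases between them, and TATAAA, the TATA box, were each in 0 of 33 member windows against 4.23% and 15.7% of all. The 250 bases before the start had a median GC content of 58.8% in the member windows, against 52.4% over all 32851 windows. These matches describe letters in a short window and not binding.

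The files' build, per the submitters' processing notes, is mm9, so these coordinates were joined to the expression values by gene symbol only. Total reads recovered from the table lay between 8.4 and 27.3 M reads (megareads) in a library, the median being 13.7. The 6 deepest libraries (17.7 M reads or more) were N1het stenosis XCT790 2, WT 1, N1het healthy 1 and 4, N1het healthy XCT790 1 and 2. Notch1 lay at 26.6 to 46.5 FPKM in WT and 24.0 to 50.03 FPKM in N1het healthy libraries, which overlap, so its level does not check the genotype labels. Terc was not analysed here. Esrra was low throughout, at 0.365 to 3.46 FPKM, and Ppargc1a, the gene of PGC-1α, lay at 0.669 to 13.2 FPKM. Genes that mark valve interstitial cells and fibroblasts stood high in every library, at a mean log2(FPKM + 1) of 7.35 to 8.76 over 7 genes.

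Markers of heart muscle divided the libraries across all groups. The mean log2(FPKM + 1) of 10 heart muscle genes, called the heart muscle marker level here, was 5.79 to 7.46 in 7 libraries and 0.96 to 3.87 in the other 14. The 7 were N1het stenosis XCT790 1, N1het stenosis 2, N1het healthy XCT790 5, N1het healthy 2, 5 and 6 and WT 4, so that each group held at least 1 of them. Tnnt2 (cardiac troponin T) lay at 571 to 1859 FPKM in these 7 and reached 288 FPKM at most in the other 14. Myh6, a myosin heavy chain of heart muscle, lay at 87.7 FPKM or more against 36.2 FPKM or less. Tnni3, Actc1, Ryr2, Pln and Mybpc3 also lay higher in each of the 7 than in any of the 14. For Pln (45.5 against 44.9 FPKM) and Mybpc3 (10.5 against 9.92 FPKM) the distance was small. Myl2, Myl3 and Myl7 overlapped. Their lowest values in the 7 were 0.566, 40.0 and 0.191 FPKM, and their highest in the 14 were 19.1, 41.0 and 16.5 FPKM. Of the 10 markers, Myl7 was at 0 in 2 libraries and Mybpc3 in 1, and the other 8 were at 0 in none. In these bulk samples, more cells of a type and more RNA per cell cannot be told apart.

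The fatty acid oxidation and TCA cycle genes followed the same division. The mean log2(FPKM + 1) of the 39 members was 4.12 to 4.92 in the 7 libraries with high heart muscle markers and 3.45 to 4.06 in the other 14, with no overlap. Without Fabp3 and Fabp4 the mean of the remaining 37 was 3.99 to 4.80 in the 7 and 3.55 to 4.06 in the 14, and WT 4 was the only one of the 7 within the range of the 14. The members' share of all reads was highest in N1het stenosis 2 (0.437%), N1het healthy 6 (0.427%) and N1het healthy 2 (0.418%), which also had the 3 highest heart muscle marker levels, and lowest in WT 1 (0.185%). Of the 39 members, 37 had the higher median in the 7 libraries, and Acot7 and Slc25a20 had the lower one. Other markers also differed between the 7 and the 14 libraries, with overlap. Smooth muscle markers had a median level of 6.59 (3.38 to 8.99) against 3.72 (2.51 to 7.95). Brown adipocyte markers (3 of 4 listed) had one of 0.60 (0.45 to 1.87) against 0.08 (0 to 1.5). Of these 3, Ucp1 and Otop1 were each at 0 in 18 libraries. Cidea lay at 1.27 FPKM or more in the 7 and reached 17.65 FPKM in the 14. The part of smooth muscle and brown adipocyte markers in the members' levels was not tested.

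**Figure D1:**
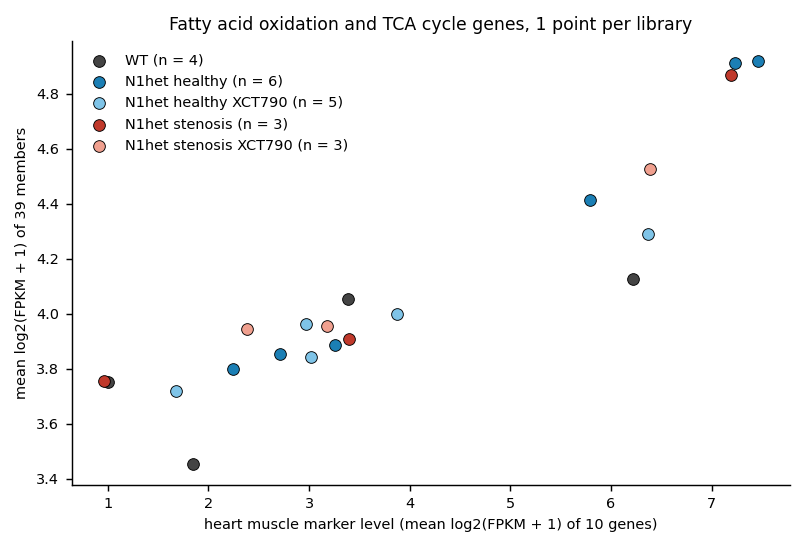
Mean log2(FPKM + 1) of the 39 members (vertical axis) against the heart muscle marker level (horizontal axis, mean log2(FPKM + 1) of 10 marker genes), 1 point per library, coloured by group. The 7 points on the right, from all 5 groups, lie at 4.12 or above and the 14 on the left at 4.06 or below.

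Levels per gene length allowed the members to be ordered, here by their mean over the 21 libraries. In uptake and binding, the highest mean was that of Fabp3 at 87.5 FPKM and the lowest that of Cd36, the fatty acid carrier, at 35.9 FPKM. By the median this order turned, with 8.19 FPKM for Fabp3 and 25.9 FPKM for Cd36. Among the 14 libraries with low heart muscle markers the medians were 6.23 and 18.4 FPKM, so Fabp3 stood first through the 7 libraries with high markers. Cd36 ran from 3.87 to 112 FPKM, and its highest library was N1het stenosis 2.

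In activation and the carnitine shuttle, Cpt1a (the widely expressed outer membrane carnitine palmitoyltransferase, which limits entry into mitochondria) was highest at a mean of 21.7 FPKM, and its muscle counterpart Cpt1b was lowest at 3.09 FPKM. Cpt1a exceeded Cpt1b in each of the 21 libraries. In the 14 libraries with low heart muscle markers its median (19.7 FPKM) was next to that of Acot7 (19.8 FPKM). In beta-oxidation, Acaa2 (the thiolase that splits off acetyl-CoA) was highest at 47.3 FPKM and Acads (short-chain acyl-CoA dehydrogenase) lowest at 5.51 FPKM. In the 14 libraries with low heart muscle markers, the median of Acadl (36.7 FPKM) was above that of Acaa2 (34.4 FPKM), and in the other 7 it was below (37.2 against 68.8 FPKM). The electron transfer flavoprotein subunit gene Etfb, at 58.1 FPKM, stood above Etfdh, its partner dehydrogenase that reduces ubiquinone, at 8.06 FPKM.

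In the TCA cycle, mitochondrial malate dehydrogenase Mdh2 was highest at 78.5 FPKM and ran from 38.3 to 114 FPKM. Fh1 (fumarase, 9.77 FPKM) and Suclg1 (a succinyl-CoA ligase subunit, 9.79 FPKM) had nearly the same mean, with ranges of 4.03 to 20.8 and 3.40 to 16.8 FPKM. Citrate synthase (Cs) was among the least variable, between 35.0 and 82.5 FPKM. Pdk4, a kinase that turns off pyruvate dehydrogenase and so favours fatty acid use, ran from 4.18 to 65.1 FPKM, highest in N1het healthy 6.

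**Figure D2:**
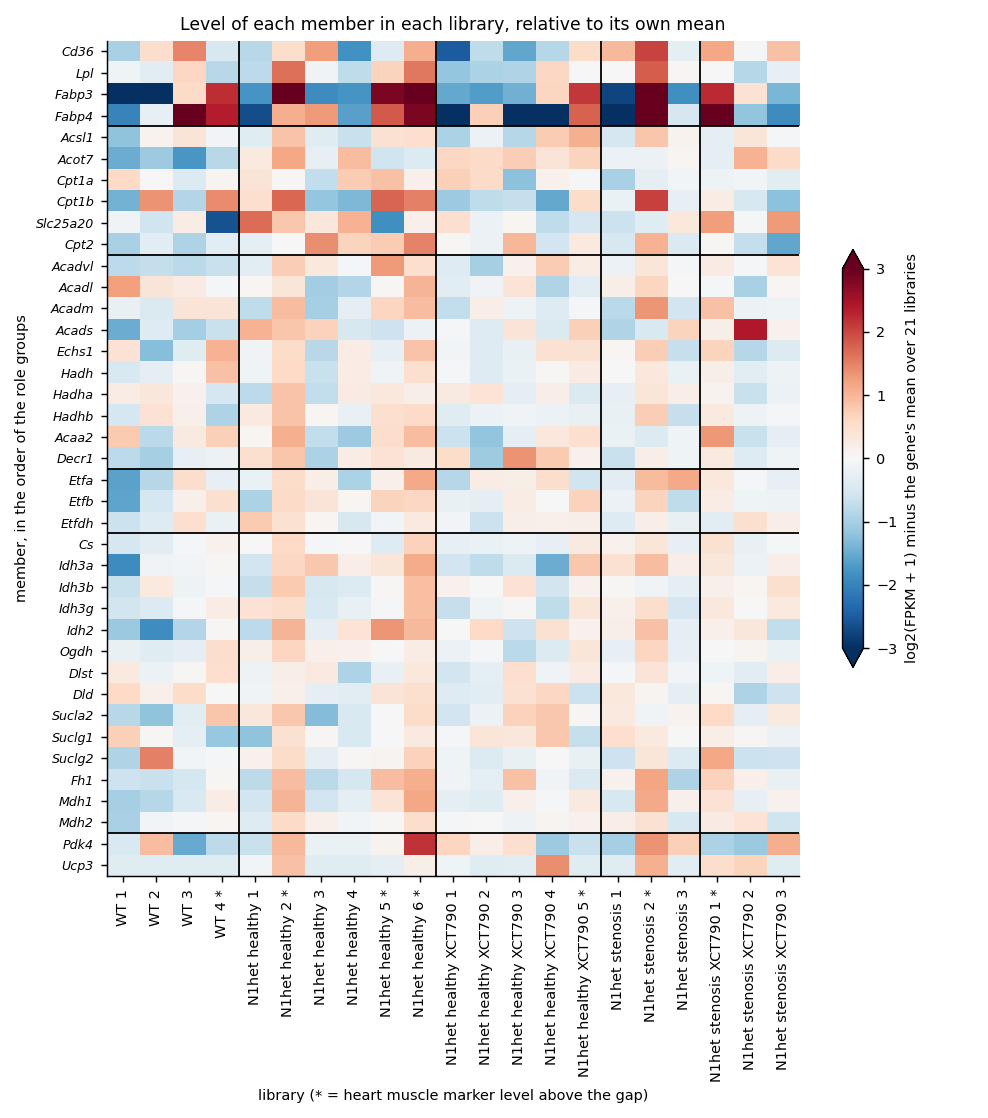
Level of each of the 39 members (rows, in the order of the role groups) in each of the 21 libraries (columns, by group), as log2(FPKM + 1) minus the gene's mean over all libraries, red above and blue below the mean. Stars mark the 7 libraries with high heart muscle markers. Fabp3 and Fabp4 span the widest range, and N1het healthy 2 and 6 and N1het stenosis 2 are red in most rows.

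The dependence on heart muscle markers was tested within groups, with limma on log2(FPKM + 1) of all 14966 genes and 1 slope common to the 5 groups, calling genes at an adjusted p under 0.05. Of the 38 members, 4 were called and all 4 had a positive slope. Of all genes 0.955% were called, 0.862% with a positive and 0.0935% with a negative slope. At an unadjusted p under 0.05, 23 of 38 had a positive and 0 a negative slope, against 5.32% and 3.5% of all genes. The slope was above 0 in 35 of 38 members and in 48.5% of all genes, with a median of 0.11 among the members and -0.003 among all genes. Among the 14 libraries below the gap alone the number of members called was 0 and that of all genes 1, with 20 of 38 slopes above 0 and a median of 0.01.

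Uptake and binding showed the steepest slopes. Fabp3 lay at 102 to 478 FPKM (median 167) in the 7 libraries with high heart muscle markers and at 0.854 to 35.9 FPKM (median 6.23) in the other 14. The ranges did not overlap, and the 2 lowest values were WT 1 and WT 2. Its slope was 1.12 ± 0.09 (SE) log2 units per unit of marker level (limma, adjusted p = 2.947e-08), and 1.02 ± 0.28 within the 14 libraries alone (adjusted p = 0.9966).

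Fabp4, the binding protein of adipocytes, macrophages and capillary endothelium, lay at 35.8 to 292 FPKM (median 88.6) in the 7 and at 0 to 236 FPKM (median 4.15) in the 14. These ranges overlapped through WT 3 at 236 FPKM and N1het healthy 3 at 41.5 FPKM, both among the 14 with low heart muscle markers. Its fitted slope of 0.97 ± 0.16 (SE) was called by limma (adjusted p = 0.002037), and it was 1.33 ± 0.49 within the 14 alone (adjusted p = 1). Lpl, the lipase that frees fatty acids from lipoproteins, had a slope of 0.26 ± 0.07 that missed the threshold (adjusted p = 0.06499), as did Cd36 at 0.24 ± 0.10 (adjusted p = 0.4067).

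Acadm stood at 15.4 to 41.6 FPKM (median 30.6) in the 7 libraries and at 7.53 to 21.4 FPKM (median 12.6) in the other 14, with overlap. With limma the slope was 0.27 ± 0.05 (SE), adjusted p = 0.002445, and it was 0.16 ± 0.14 among the 14 libraries. Mdh1, the cytosolic enzyme of the malate-aspartate shuttle, stood at 46.3 to 89.1 FPKM (median 53.6) against 19.3 to 44.2 FPKM (median 31.1), without overlap. Mdh1 had a slope of 0.24 ± 0.03 (SE) by limma, adjusted p = 0.0002331, and 0.14 ± 0.11 among the 14 libraries. Fabp3 and Mdh1 were the 2 members (5.26% of 38) whose 7 libraries lay above all 14 others, as was the case for 0.301% of all genes.

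Cpt1b, whose protein is the muscle form of the shuttle enzyme, had the next steepest slope, 0.38 ± 0.09 (limma, adjusted p = 0.06293), and lay at 2.42 to 11.1 FPKM in the 7 libraries and 0 to 6.38 FPKM in the 14. Its counterpart Cpt1a had a slope of 0.003 ± 0.060 (adjusted p = 0.995), with 16.6 to 38.1 FPKM in the 7 and 8.04 to 35.1 FPKM in the 14. The difference between the slopes of Cpt1a and Cpt1b was not tested. Negative slopes were seen for Slc25a20, the carnitine-acylcarnitine carrier (-0.16 ± 0.09), Acot7, a thioesterase that releases fatty acids from coenzyme A (-0.03 ± 0.06), and Suclg1 (-0.01 ± 0.06), and none of the 3 passed the threshold.

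**Figure D3:**
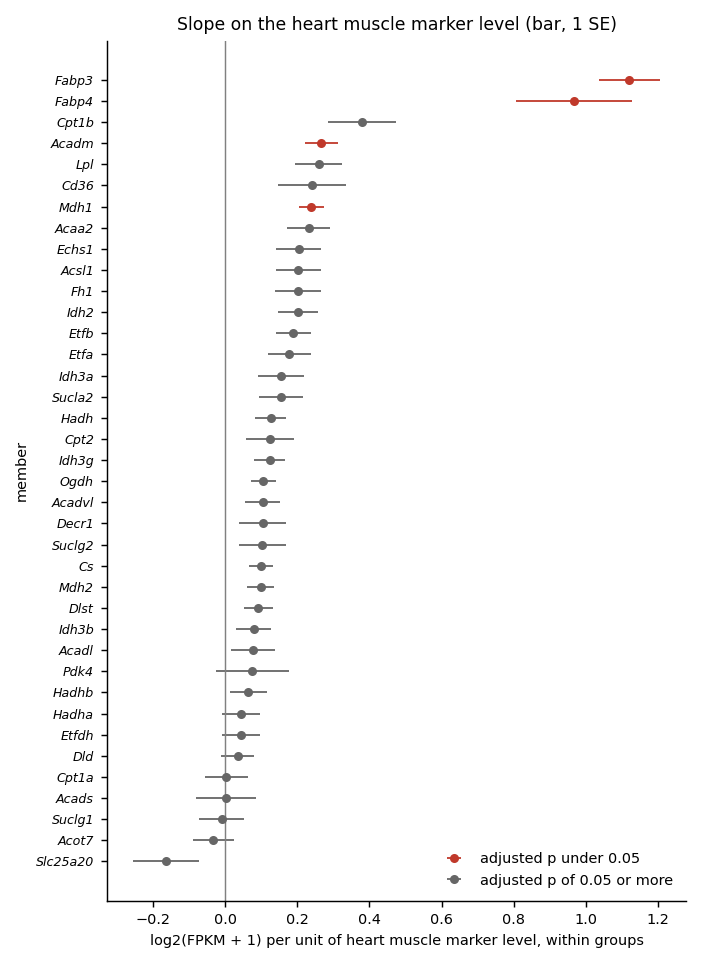
Slope of log2(FPKM + 1) on the heart muscle marker level (horizontal axis) for each of the 38 members tested (vertical axis), fitted within groups over 21 libraries, with 1 SE as bars. Red points are the 4 members with an adjusted p under 0.05, and 35 of 38 points lie to the right of 0.

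Of the 50 other genes listed for these pathways, 48 were tested, and 2 were called with a positive slope and 0 with a negative one. Me3, a mitochondrial malic enzyme, had the smaller p of these, with a slope of 0.37 ± 0.08 (limma, adjusted p = 0.03108). The slope was above 0 in 33 of 48, with a median of 0.04.

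Adipocyte markers were near 0 in most libraries. The mean log2(FPKM + 1) of the 5 adipocyte markers in the table was 3.08 in N1het stenosis XCT790 1, 1.41 in N1het healthy 6 and 0.72 or less in the other 19, and Adipoq (adiponectin) was at 0 in 18 libraries. On this level 0 of 38 members were called by limma, against 0.18% of all genes, with 6 positive and 1 negative at an unadjusted p under 0.05 (3.7% and 1.6% of all genes). The slope was above 0 in 33 of 38 members and 55.1% of all genes, with medians of 0.19 and 0.02, and in 21 of 38 with a median of 0.02 when the heart muscle marker level was also in the fit. The smallest p was that of Suclg2, the GTP-forming succinyl-CoA ligase subunit, with a slope of 0.54 ± 0.18 (limma, adjusted p = 0.4876). Fabp4 had a slope of 2.06 ± 0.78 (limma, adjusted p = 0.6679), and in WT 3, which held less Fabp4 than only N1het stenosis XCT790 1 and N1het stenosis 2, the adipocyte marker level was 0.

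Between N1het and WT healthy valves, most members stood higher in N1het valves, but no single member passed the test. By limma, 0 of 38 were called and 0% of the 14966 genes tested. The difference was above 0 in 31 of 38 members, with a median of 0.38 (log2), against 57.6% of all genes and a median of 0.09. At an unadjusted p under 0.05, 6 members were higher (Acot7, Acadvl, Idh2, Cpt2, Acads and Idh3a) and 0 lower, against 5.29% and 2.13% of all genes. By role, the group of activation and the carnitine shuttle, which includes Acot7, was above 0 in 6 of 6 (median 0.76). Electron transfer was above 0 in 3 of 3 (median 0.59) and the TCA cycle in 12 of 14 (median 0.36). For beta-oxidation this was 7 of 10 (median 0.08) and for uptake 2 of 4.

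Heart muscle markers moved with this comparison, since 3 of 6 N1het healthy libraries and 1 of 4 WT libraries lay above the gap, with marker levels of 2.24 to 7.46 and 1.00 to 6.22. With the marker level as a covariate the members' median was 0.15, with 25 of 38 above 0. In that fit 57.3% of all genes were above 0, with a median of 0.09. Without the 7 libraries the members' median was 0.11, with 22 of 38 above 0. There 50.8% of all genes were above 0, with a median of 0.01. Beyond these values the part of heart muscle in the difference was not tested.

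Acot7 had the smallest p. It stood at 4.83, 6.76, 3.88 and 8.29 FPKM in WT 1 to 4 and at 9.80, 16.0 and 35.8 FPKM (lowest, median, highest) in the 6 N1het healthy libraries. All N1het healthy libraries lay above all WT libraries, as did the libraries of the other 3 N1het groups, which ran from 12.7 to 32.9 FPKM. The difference was 1.47 ± 0.33 (SE, log2, 95% interval 0.79 to 2.16, limma, adjusted p = 0.3129), and 1.76 without the 7 libraries with high heart muscle markers. In the authors' deposited table, Acot7 is marked as changed in this comparison, as are 139 genes (0.666%) in all, and it is the only member marked in any of the 5 comparisons there.

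Acadvl, very long-chain acyl-CoA dehydrogenase, the first enzyme of the cycle for long chains, stood at 10.8, 11.5, 10.7 and 11.8 FPKM in WT and at 15.5, 26.2 and 48.3 FPKM (lowest, median, highest) in N1het healthy valves. The 4 WT values lay within a narrow band below all 6 N1het values. The difference was 1.16 ± 0.31 (limma, adjusted p = 0.4087), and 0.75 without the 7 libraries with high heart muscle markers. Cpt2, the inner membrane carnitine palmitoyltransferase, was the third member without overlap, at 3.45 to 6.00 FPKM in WT and 6.26 to 23.2 FPKM in N1het healthy valves. These 3 of 38 (7.89%) compare with 1.16% of all genes whose groups did not overlap.

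Idh2, the NADP-dependent mitochondrial isocitrate dehydrogenase, stood at 7.83, 4.29, 9.39 and 18.6 FPKM in WT and at 10.2, 30.6 and 47.2 FPKM (lowest, median, highest) in N1het healthy valves. The groups overlapped through WT 4 and N1het healthy 1 and 3. The difference was 1.40 ± 0.41 (limma, adjusted p = 0.428). At the other end, Acadl, long-chain acyl-CoA dehydrogenase, differed by -0.53 ± 0.36 (adjusted p = 0.7572). Of the 48 other pathway genes, 33 were above 0 (median 0.15), 0 were called, and the smallest p-values were those of Acot1, a cytosolic thioesterase (1.60 ± 0.52), and Mlycd, malonyl-CoA decarboxylase (1.62 ± 0.54), each with an adjusted p of 0.4999.

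**Figure D4:**
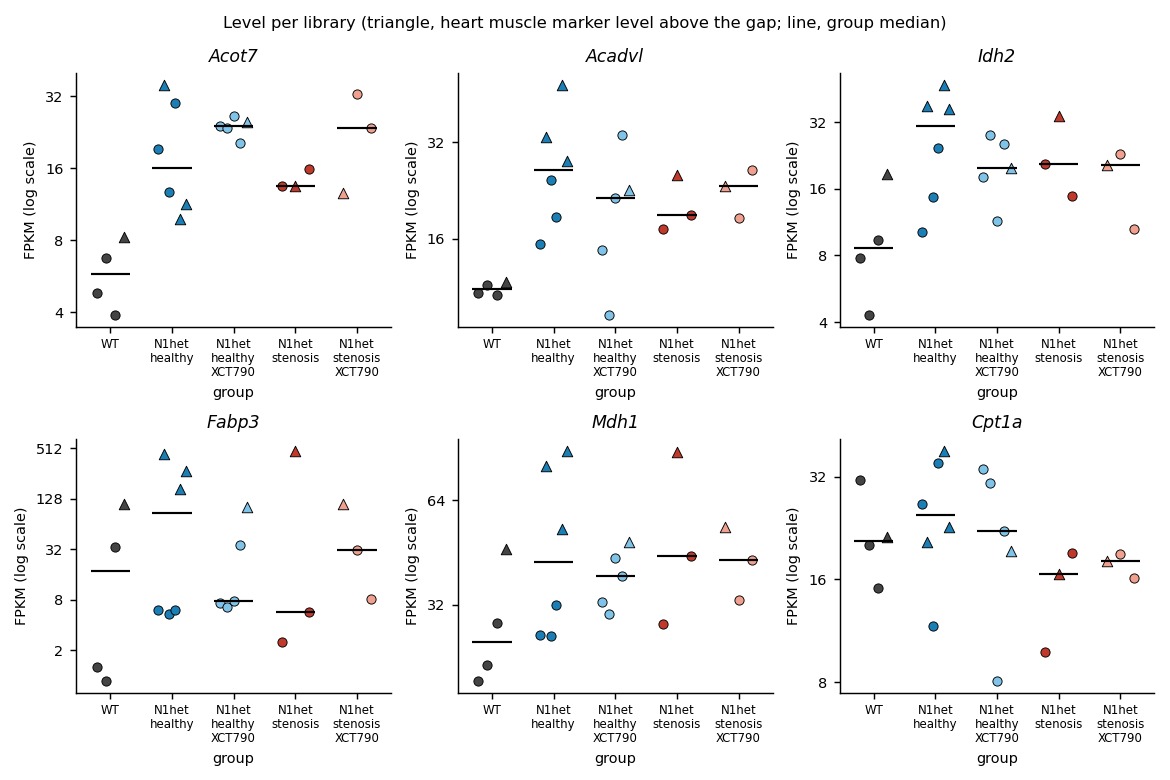
FPKM (log scale) of 6 members in each library by group, with triangles for the 7 libraries with high heart muscle markers and a line at each group's median. The 4 WT points lie below all N1het healthy points in Acot7 and Acadvl, while in Fabp3 and Mdh1 the triangles lie above all circles over the 5 groups together.

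Between stenotic and healthy N1het valves under solvent by title, no member passed the test. The agent label of all 3 stenotic libraries is XCT790, so no comparison with N1het stenosis could be run with groups by that label. By limma 0 of 38 were called, against 0.0334% of all genes (5 of 14966), and at an unadjusted p under 0.05 the count was 0 higher and 0 lower, against 4.59% and 5.01%. The difference was below 0 in 26 of 38 members, with a median of -0.09. Over all genes the median was -0.04, with 46.85% of them above 0. The smallest p was that of Cpt1a, at 9.80, 16.6 and 19.1 FPKM in the 3 stenotic libraries and 11.7, 24.6 and 38.1 FPKM (lowest, median, highest) in the healthy ones. The ranges overlapped, and the difference was -0.69 ± 0.38 (95% interval -1.48 to 0.11, limma, adjusted p = 0.6172). No member was without overlap between the groups, against 5.46% of all genes. Cpt2 differed by -0.63 ± 0.46 (adjusted p = 0.7282) and Cd36 by 0.94 ± 0.70 (adjusted p = 0.7404).

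The direction of that median depends on single libraries. It was -0.36 without N1het stenosis 2, the 1 stenotic library with high heart muscle markers, and 0.08 without N1het stenosis 3. It was 0.05 without N1het healthy 6, 0.01 without N1het healthy 2, and -0.29 without the 6 deepest libraries. None of those 6 is in the N1het stenosis group under solvent. With the heart muscle marker level as a covariate it was 0.05. Macrophage markers also differed, with levels of 7.58 to 8.53 in the stenotic and 5.85 to 7.03 in the healthy libraries, without overlap, and none of the 7 markers was at 0. The 7 markers of valve interstitial cells and fibroblasts stood lower, at 7.35 to 7.77 against 7.86 to 8.76, also without overlap. Their part in the members' values was not tested.

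Of the other pathway genes, 26 of 48 were above 0 in stenotic against healthy N1het valves and 0 were called. Plin2, which coats lipid droplets and is abundant in macrophages, had the smallest p. It stood at 41.8, 34.1 and 69.9 FPKM in the stenotic libraries and at 13.5, 18.4 and 25.6 FPKM (lowest, median, highest) in the healthy ones. The groups did not overlap, and the difference was 1.31 ± 0.35 (limma, adjusted p = 0.1894).

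Against WT, stenotic N1het valves had 0 of 38 members called by limma, with 0.0334% of all genes called, and 5 members higher at an unadjusted p under 0.05 and 0 lower, against 6.35% and 4.1% of all genes. The difference was above 0 in 29 of 38 members and 54.3% of all genes, with medians of 0.33 and 0.06. The 5 were Acot7, Idh2, Etfa, Acadvl and Idh3a. This comparison and that of N1het healthy valves share the WT libraries. The median was 0.02 without N1het stenosis 2, 0.15 without WT 1 or without the 6 deepest libraries, 0.18 with the heart muscle marker level as a covariate and 0.09 without the 7 libraries with high markers. Macrophage markers lay at 7.58 to 8.53 in the stenotic and 6.05 to 7.13 in the WT libraries, and markers of valve interstitial cells and fibroblasts at 7.35 to 7.77 and 7.96 to 8.22, each without overlap. Their part was not tested.

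Acot7 stood at 13.5, 13.5 and 16.0 FPKM in the stenotic libraries, all above the WT libraries (3.88 to 8.29 FPKM). The difference was 1.18 ± 0.39 (limma, adjusted p = 0.3124). Idh2 (20.7, 33.96 and 14.9 FPKM) overlapped with WT through WT 4 and differed by 1.22 ± 0.49 (adjusted p = 0.3977). Etfa, the other subunit of the electron transfer flavoprotein, stood at 31.6, 77.6 and 88.5 FPKM against 12.3, 21.7, 57.7 and 33.3 FPKM in WT, with overlap, and differed by 1.13 ± 0.49 (adjusted p = 0.4275). Acot7, Acadvl and Idh3a (7.89% of 38) did not overlap between the groups, as was the case for 8.61% of all genes.

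**Figure D5:**
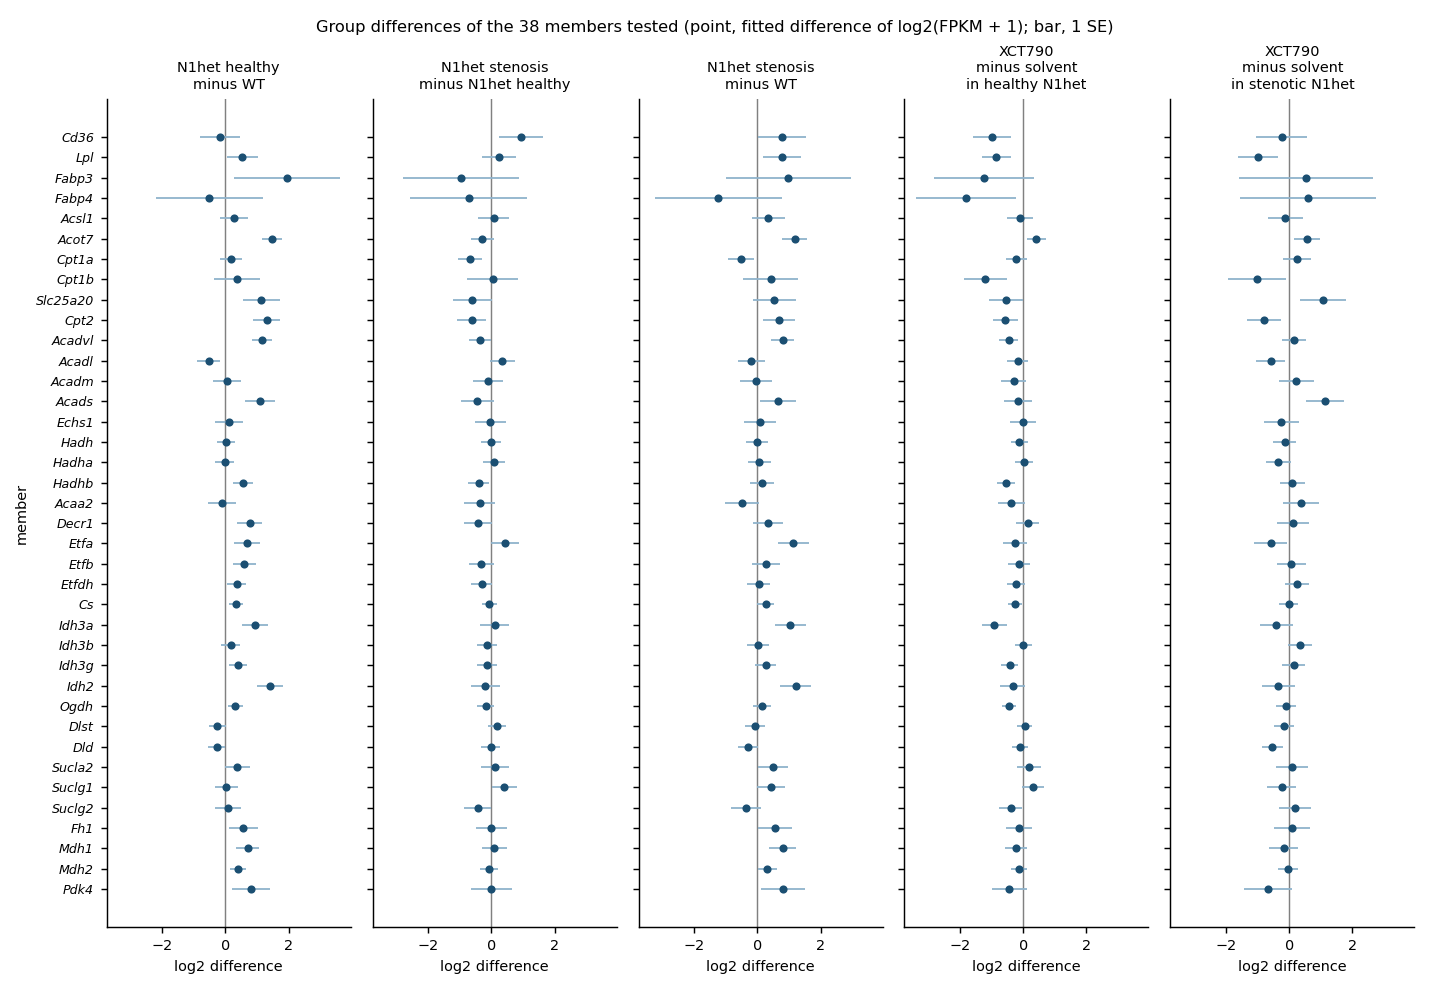
Fitted difference of log2(FPKM + 1) (horizontal axis) for the 38 members tested (vertical axis) in 5 comparisons, 1 panel each, with 1 SE as bars. In the first panel 31 of 38 points lie above 0 and in the fourth, XCT790 in healthy valves, 31 of 38 lie below 0, with 0 members called in each panel.

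XCT790 in healthy N1het valves went with values below those under solvent in 31 of 38 members, and no member passed the test. By limma 0 of 38 were called, as were 0% of all genes. At an unadjusted p under 0.05, 1 member was lower and 0 higher, against 1.02% and 1.63% of all genes. The median of the members was -0.25, while that of all genes was 0.04, with 54.0% of all genes above 0. By role, uptake and binding was below 0 in 4 of 4 (median -1.12). The group of activation and the carnitine shuttle was below 0 in 5 of 6 (median -0.38), with Acot7 above 0. Electron transfer was below 0 in 3 of 3 (median -0.22), the TCA cycle in 10 of 14 (median -0.19) and beta-oxidation in 8 of 10 (median -0.17). Of the 48 other pathway genes 24 were above and 24 below 0.

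The heart muscle marker level moved with the drug groups as well, since 1 of 5 treated and 3 of 6 solvent libraries lay above the gap. With the level as a covariate the members' median was -0.09, with 23 of 38 below 0. In that fit 53.8% of all genes were above 0 (median 0.03). Without the 7 libraries with high markers the members' median was 0.12, with 16 of 38 below 0, so the direction turned. There 55.8% of all genes were above 0 (median 0.07), and the 22 of 38 members above 0 lay near that share. The members' median was -0.14 without N1het healthy 6, -0.38 without N1het healthy 3 and -0.01 with groups by the agent label. Beyond these values the part of heart muscle was not tested.

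Idh3a, the catalytic subunit gene of the NAD-dependent isocitrate dehydrogenase, had the smallest p under XCT790 in healthy valves. It stood at 7.97, 6.95, 8.92, 3.81 and 22.5 FPKM in the 5 treated libraries and at 8.06, 15.4 and 28.2 FPKM (lowest, median, highest) under solvent. The groups overlapped through N1het healthy XCT790 3 and 5 and the lower solvent libraries, and XCT790 5 is the treated library with high heart muscle markers. The difference was -0.91 ± 0.39 (95% interval -1.73 to -0.10, limma, adjusted p = 1), and -0.96 without the 7 libraries with high markers.

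Ogdh, whose promoter holds the ERR core match shown above, stood at 29.6, 32.4, 18.7, 25.0 and 43.5 FPKM under XCT790 and at 34.1, 37.9 and 53.0 FPKM (lowest, median, highest) under solvent. Only N1het healthy XCT790 5 reached into the solvent range, and the difference was -0.44 ± 0.23 (limma, adjusted p = 1). Acadm, which holds the other match, differed by -0.31 ± 0.41, with a 95% interval of -1.15 to 0.54. A link between these matches and the drug differences was not tested. Hadhb, a subunit of the mitochondrial trifunctional protein, differed by -0.55 ± 0.29 (adjusted p = 1), Cpt1b by -1.20 ± 0.68 and Pdk4 by -0.44 ± 0.56. For Cs the 95% interval was -0.70 to 0.19. None of the 38 members was without overlap between the groups, against 0.267% of all genes.

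In stenotic N1het valves, members stood on both sides of 0 under XCT790, with 18 above and 20 below and a median of -0.03. Over all genes 57.6% were above 0, with a median of 0.09. By limma 0 of 38 were called and 0% of all genes, and at an unadjusted p under 0.05 the count was 0 in each direction, against 2.53% of all genes higher and 0.815% lower. Acads had the smallest p, at 5.02, 27.1 and 4.82 FPKM under XCT790 and 1.84, 2.83 and 7.43 FPKM under solvent. The groups overlapped and 1 library, N1het stenosis XCT790 2, stood far above the others. The difference was 1.14 ± 0.60 (limma, adjusted p = 1).

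Lpl stood at 34.8, 18.8 and 29.2 FPKM under XCT790 and at 34.6, 126 and 36.0 FPKM under solvent, where N1het stenosis 2 gave the high value. It differed by -0.99 ± 0.64 (limma, adjusted p = 1), and Dld, the lipoamide dehydrogenase shared by several complexes, by -0.53 ± 0.34 (adjusted p = 1). Skeletal muscle markers (3 of 5 listed) lay at 0.91 to 1.25 under XCT790 and 0.06 to 0.29 under solvent. These levels are low, with Tnnt3 at 0 in 5 of the 21 libraries, Mylpf in 14 and Actn3 in 13. None of the 3 markers held the groups apart on its own, and their part was not tested. The median of the members was 0.24 without N1het stenosis 2 and -0.25 without N1het stenosis 3. Idh3b (2.63% of 38) was the only member without overlap, against 8.75% of all genes.

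Over both valve states together, the drug difference was below 0 in 29 of 38 members with a median of -0.14. Over all genes 59.2% were above 0, with a median of 0.06. By limma 0 members were called and 0% of all genes. At an unadjusted p under 0.05, 1 member was lower and 0 higher, against 0.815% and 2.41% of all genes. That member was Lpl, at -0.92 ± 0.39 (limma, adjusted p = 1). The drug effect in stenotic minus that in healthy valves, the interaction, had 0 members called and 0% of all genes called, 0 at an unadjusted p under 0.05 (2.02% of all genes higher and 0.962% lower), and a median of 0.19. Its smallest p was that of Slc25a20, at 1.61 ± 0.90 (limma, adjusted p = 1), with an effect of -0.54 ± 0.54 in healthy and 1.06 ± 0.73 in stenotic valves. The drug effects in the 2 states are therefore not shown to differ in any member.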

How the data were processed

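Libraries were made from valves lysed directly, using the RNeasy Micro kit of Qiagen and NuGEN's Ovation System V2 for RNA-Seq, per the labels' protocols. HISAT2, SAMtools, Picard, FastQC and build mm9 appear in the submitters' processing notes. How fragments were counted, on which annotation and with which strand setting was not given in the sources used here. Whether overlapping or near-identical genes share reads is therefore unknown. The authors deposited FPKM values per gene and library, their group means, which equal the column means within 7e-06, and marks of 0 or 1 for changed genes, by an unstated test.

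Each nonzero FPKM was a whole multiple of a step, and 100% of values gave whole reads within 0.01, so depth could be read from the table. Amplified reads are not independent molecules.

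The main test was limma 3.58.1 (R 4.3.3, statmod 1.5.0) on log2(FPKM + 1), a scale that understates changes of low genes. It covered the 14966 genes with a mean of at least 1 FPKM (5906 left out), with 5 group means over 21 libraries, moderated variances with trend and robust settings, and Benjamini-Hochberg adjustment over all genes tested. Intervals are 95%. The fit was tested on simulated data. The members, pathway list and marker lists were chosen with earlier results of these data known. In each comparison of a pair of groups, fitted differences are given for the 3 members with the smallest p, with library values or ranges for some of them. Members called on a marker level are given by ranges and medians over libraries. Alternatives covered pseudocount, filters, scaling, samples in the fit, a replicate block, covariates, libraries left out, the agent label and limma's voom on the recovered reads. The promoter windows come from RefSeq, GRCm38.p6. The values of 1 other pathway gene are not reported here.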

Additional observations from a re-analysis of the deposited data

Results flagged for a closer look

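In 9 of 119 combinations of a member (or the members' mean) with a group of 4 to 6 libraries, 1 library stood far from the others of its group on the log2(FPKM + 1) scale, measured by its gap to the nearest library as a share of the group's range. Chance flags about 1 in 20 such combinations. In WT, Idh3a was at 2.61 FPKM in WT 1 against 11.4 to 12.8 FPKM in the others (gap share 0.921), Mdh2 was at 38.3 FPKM in WT 1 against 72.3 to 79.7 FPKM (0.866), and Ogdh was at 48.7 FPKM in WT 4 against 25.7 to 28.6 FPKM (0.834). In N1het healthy valves, Decr1, the dienoyl-CoA reductase for unsaturated fatty acids, was at 4.05 FPKM in library 3 against 10.6 to 16.4 FPKM (0.669), Ogdh was at 53.0 FPKM in library 2 against 34.1 to 39.4 FPKM (0.674), and Etfb was at 27.6 FPKM in library 1 against 56.7 to 86.3 FPKM (0.629). In N1het healthy XCT790, Cs was at 60.7 FPKM in library 5 against 42.5 to 45.2 FPKM (0.827), Fh1 was at 16.7 FPKM in library 3 against 6.09 to 7.99 FPKM (0.739), and Ucp3 was at 2.38 FPKM in library 4 against 0 to 0.167 FPKM (0.873). The high Ogdh values of WT 4 and N1het healthy 2 and the high Cs value of N1het healthy XCT790 5 were in libraries with high heart muscle markers.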

How the results depend on the processing

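In the 7 group comparisons the number of members called was 0 under each of the 156 combinations of comparison and alternative run, voom on recovered reads included. The number called on the heart muscle marker level, 4 as reported, was 8 with voom on recovered reads (adding Lpl, Acsl1, Cpt1b and Acaa2), 0 without the 7 libraries highest in heart muscle markers, and 4 to 6 when 1 library was left out at a time, with 6 without N1het stenosis 1. With the replicate number as a block it was 2, Fabp3 and Mdh1, while Fabp4 had a slope of 0.96 (limma, adjusted p = 0.06266) and Acadm one of 0.25 (adjusted p = 0.1242). The replicate numbers did not pair the samples, since same-numbered libraries had a median correlation of deviations of 0.01 (-0.11 to 0.13) over 34 pairs of libraries, and the block changed no call in the group comparisons. Alternatives were run for the 3 members with the smallest p in each comparison and the 4 members called on the heart muscle marker level, and none of these reversed. Medians over the members, beside a spread of their mean between libraries of 0.42 log2 units (SD), ranged over the alternatives from 0.11 to 0.49 for N1het healthy against WT, from -0.36 to 0.10 for stenotic against healthy N1het, from 0.02 to 0.46 for stenotic N1het against WT, from -0.38 to 0.12 for XCT790 in healthy and from -0.25 to 0.24 in stenotic valves, from -0.25 to 0.07 over both, and from -0.08 to 0.48 for the interaction. Groups of 3 libraries, the spread of the heart muscle markers and depth limit what could be detected. Low members are measured on few reads, with Cpt1b and Fabp4 at 0 reads in 1 or more libraries and Slc25a20 at 2 reads in WT 4.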
